A study of Mus musculus with 48 samples.

Results

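The thoracic aortas of 9 FeAAD mice were compared across genes with those of 10 FeCon mice, which together make up 19 of the 48 libraries of the study. The libraries were chosen by their group labels, with 1 library of bulk RNA per mouse. All 19 mice were wild-type female C57BL/6J mice. FeAAD mice had drunk water with 0.4% β-aminopropionitrile (BAPN) for 28 days from the age of 3 weeks and had an aortic dissection or aneurysm at the end, whereas FeCon mice had drunk normal water. According to the methods of the study, mice that died of rupture before the end were not among these libraries, the lesion was graded after the treatment, and control and BAPN-treated mice lived in different cages. The effects of BAPN, of the lesion and of the cage therefore cannot be told apart within this comparison. Beside it stand the values of 8 FeNonAD mice, females that received the same BAPN without a visible lesion, and of 10 MaCon and 7 MaAAD mice, which are males of the same strain on normal water and males with a lesion on BAPN. Each library is 1 mouse, so p-values measure the spread between mice.

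BAPN blocks the lysyl oxidases, the enzymes that cross-link elastin and collagen in the wall of the aorta, and young mice whose aortas grow without these cross-links develop aneurysms and dissections. The medial layer of the aorta is built of smooth muscle cells between elastic lamellae. In injured arteries these cells are known to lose contractile proteins and to make matrix, while monocytes enter the wall and become macrophages. The labelled tissue was checked against its markers, and Myh11, the myosin heavy chain of smooth muscle, was high in all FeCon libraries at 4892 to 7826 CPM, where CPM are counts scaled to an effective (TMM) library total of 1000000.

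Library totals ranged from 13548003 to 16078202 counts in FeCon and from 15867054 to 16453882 in FeAAD. The mean total was 1199356 counts, or 7.99% of the FeCon mean, higher in FeAAD (two-sided exact permutation test over 92378 splits, p = 5.41e-05), and CPM values are scaled for these totals and for composition. FeAAD5 and FeAAD9 stood apart from the other FeAAD libraries, with a median correlation to their own group of 0.911 and 0.948 on the log2(CPM + 1) scale, against 0.971 to 0.981 for the other 7. Among FeCon libraries this correlation was 0.972 to 0.985. FeAAD5 had the highest summed level of macrophage markers, FeAAD5 and FeAAD9 the highest levels of neutrophil and platelet markers, FeAAD2 the highest haemoglobin and FeCon10 the highest heart muscle markers, and results that rest on these libraries are given with and without them.

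Of 14431 genes tested with edgeR's quasi-likelihood test, 1435 were DEGs higher in FeAAD (9.94%) and 401 were DEGs lower (2.78%), where a DEG has a Benjamini-Hochberg adjusted p under 0.05 and a log2 fold change of at least 1 in size. The median log2 fold change over all tested genes was 0.001. Rises were larger than falls, as 693 of the higher DEGs had a log2 fold change of at least 2 and 124 of at least 4, against 41 of the lower DEGs at or below the same size of 2. In 475 of the higher DEGs and 64 of the lower ones no FeAAD library overlapped any FeCon library, and over all tested genes such separation was seen for 3.63% upward and 1.25% downward. Without FeAAD5 and FeAAD9, 1226 DEGs were higher and 250 lower, of which 1163 and 236 were also called with all libraries. The filter on low counts could let a gene pass through 1 high group. When FeCon and FeAAD were fitted alone, 13500 genes were tested, 1103 were higher and 302 lower, and 341 of the 1435 and 70 of the 401 were no longer among the tested genes. Where this fit moved a list count by over 1.5 times its counts are given beside the list as those of the 19 libraries alone. The p-values of list members below were adjusted over all tested genes, and the counts of list members can be read against 9.94% and 2.78%. Values after ± are SEs, and log2 fold changes are FeAAD minus FeCon unless another contrast is named.

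**Figure D1:**
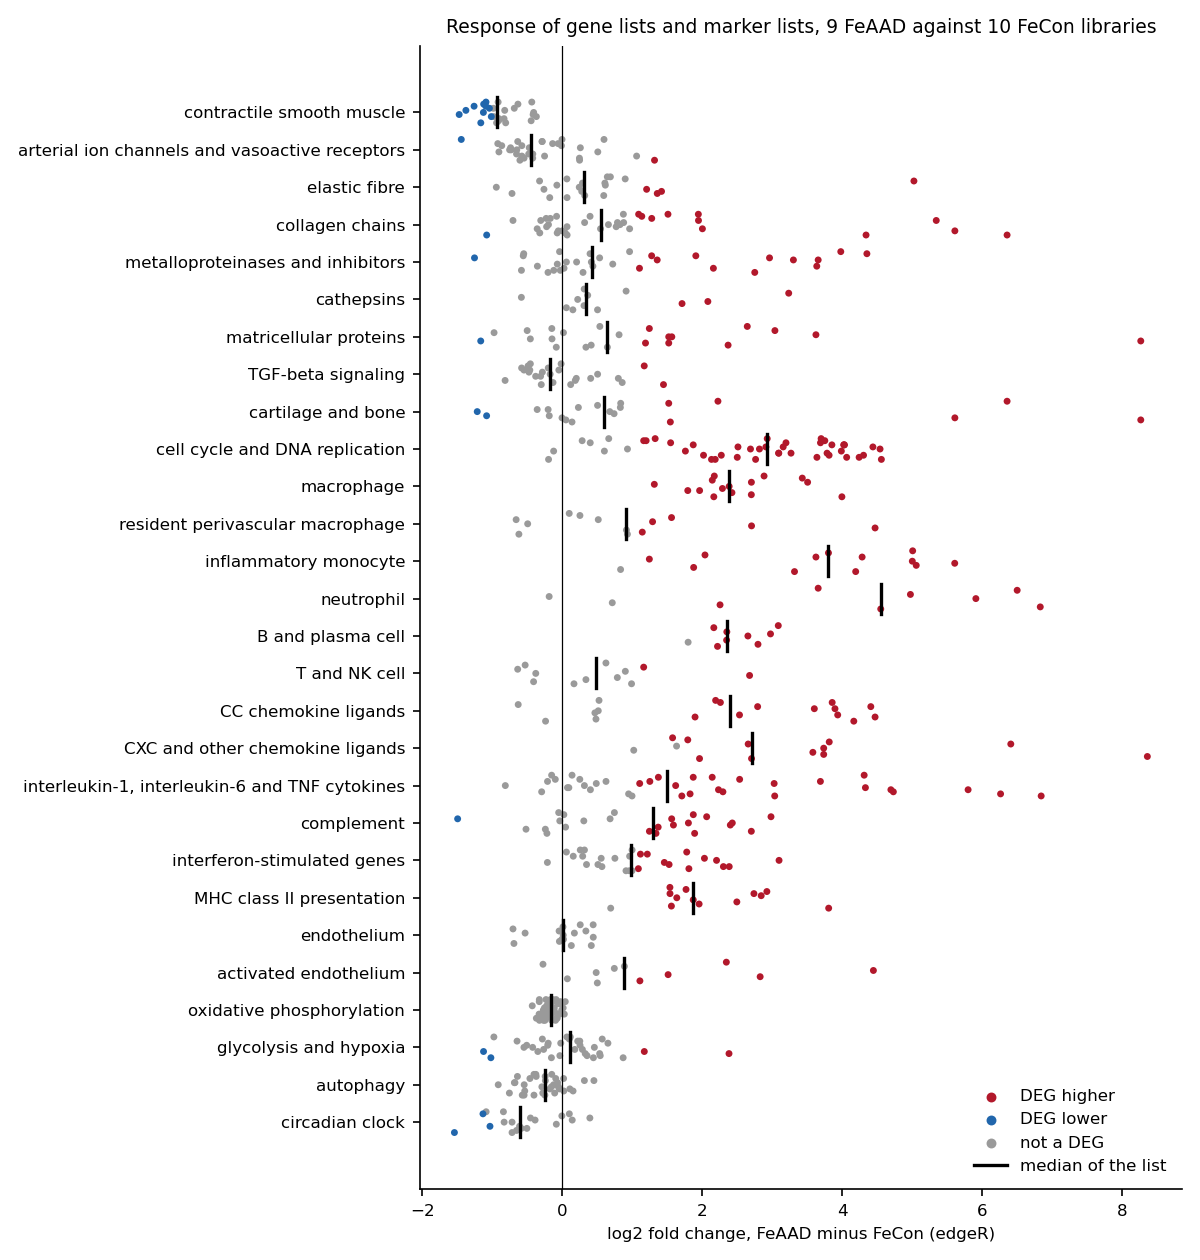
Each point is a gene of the list named on the left, placed by its log2 fold change between 9 FeAAD and 10 FeCon libraries on the horizontal axis, coloured by its call, and the black bar is the median of the tested members. The bar of the cell cycle list lies at 2.92 and that of the macrophage list at 2.38, whereas the contractile list lies at -0.93 and oxidative phosphorylation at -0.16.

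The contractile apparatus of smooth muscle was lower in FeAAD. Of 26 tested genes of contractile smooth muscle, 10 fell as DEGs and none rose, and all 26 had a lower level with adjusted p under 0.05, against 20.6% of all tested genes, with a median log2 fold change of -0.93. The largest fall among those with separate groups was that of Synpo2, an actin-binding protein of the contractile cell, which ranged from 386 to 928 CPM (median 655) in FeCon and from 68.1 to 383 CPM (median 239) in FeAAD. No FeAAD library reached the lowest FeCon library, and the log2 fold change was -1.47 ± 0.23 (adjusted p = 8.89e-07). Des, the intermediate filament desmin, ranged from 112 to 279.9 CPM (median 166) in FeCon and from 51.9 to 99.1 CPM (median 56.9) in FeAAD, a log2 fold change of -1.38 ± 0.21 with no overlap. Lmod1, leiomodin, which starts actin filaments, ranged from 900.2 to 1630 CPM (median 1215) in FeCon and from 159 to 771 CPM (median 511) in FeAAD. FeAAD5 held the lowest Lmod1 value and FeAAD8 the highest FeAAD value, at 159 and 771 CPM, and the log2 fold change was -1.26 ± 0.18 (adjusted p = 1.59e-07). Myh11 ranged from 4892 to 7826 CPM (median 6238) in FeCon and from 754 to 4567 CPM (median 2978) in FeAAD, again without overlap, with a log2 fold change of -1.16 ± 0.19. None of the 10 passed a test against a fold of 2 (glmTreat). Leaving out FeAAD5 reduced the number of called members from 10 to 6, and without FeAAD5 and FeAAD9 the Myh11 value was -0.96, under the fold threshold.

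Other proteins of the contractile cell lay close to that threshold. Cnn1, calponin, had a log2 fold change of -1.09 ± 0.18, and Myl9, the regulatory light chain of myosin, of -1.04 ± 0.17. Both overlapped, with 8 FeAAD libraries for Cnn1 and 7 for Myl9 below the lowest FeCon library. The Myl9 call was lost without FeAAD5 (-0.97), FeAAD6 (-0.99) or FeCon7 (-0.96). Acta2, smooth muscle actin, was at -0.81 (adjusted p = 0.0002), Tagln, transgelin, at -0.94 (adjusted p = 1.29e-05) and Myocd, the coactivator that switches contractile genes on, at -0.92 (adjusted p = 0.000138), each short of the fold threshold with all libraries. Tagln just passed it without FeAAD3 or FeAAD8 (-1.02 in the latter case), and Myocd without FeAAD3 (-1.01).

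Contractile genes are known to be driven by serum response factor through the CArG box, and the promoter of Myl9 is shown because it holds such a box 161 to 152 bases before the start of a called member. The stretch is from RefSeq, GRCm38.p6, chr2:156775263-156775352, plus strand, with the CArG box in capitals:
Myl9: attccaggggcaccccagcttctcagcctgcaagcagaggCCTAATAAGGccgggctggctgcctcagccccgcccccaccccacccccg
The CArG box was found on either strand in the windows, 250 bases before to 50 after a start, of 3 of 21 matched contractile genes (14.3%) and in 1.81% of all 27025 genes with a RefSeq promoter. A match describes the letters and not binding.

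Of 32 tested ion channels and vasoactive receptors of the artery 1 rose and 1 fell, or 3 rose with DESeq2 or with no filter on low counts, and 18 were lower with adjusted p under 0.05 regardless of the fold, against 20.6% of all tested genes. Adra1d, the alpha-1D adrenergic receptor, was the member that fell, from 68.8 to 131 CPM (median 94.1) in FeCon and from 9.4 to 70.4 CPM (median 32.8) in FeAAD, with a log2 fold change of -1.44 ± 0.21 (adjusted p = 3.99e-07). FeAAD3 at 70.4 CPM was the only FeAAD library to reach the FeCon range. Ednrb, the endothelin receptor B, was the member that rose, by 1.32 ± 0.30, and at 0.97 without FeAAD5 it no longer passed, while a second member passed upward without FeAAD1, FeAAD2, FeAAD3, FeAAD4 or FeAAD8 and downward without FeAAD3. Kcnma1, the large-conductance potassium channel, was lower without overlap but short of the fold threshold at -0.92 (adjusted p = 4.35e-06).

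Of 22 tested elastic fibre genes, 4 rose and none fell as DEGs, and the risers included the fibre core itself. Eln, elastin, ranged from 7934 to 16040 CPM (median 10480) in FeCon and from 11070 to 44080 CPM (median 25590) in FeAAD, and 8 of 9 FeAAD libraries lay above every FeCon library. The Eln log2 fold change was 1.42 ± 0.23 (adjusted p = 1.97e-06). Lox, the lysyl oxidase that BAPN inhibits, ranged from 217 to 578 CPM (median 467) in FeCon and from 530.5 to 1635 CPM (median 1030) in FeAAD, a log2 fold change of 1.21 ± 0.25 with 7 FeAAD libraries above all controls. Fbn2, fibrillin-2 of developing elastic fibres, was under 1 CPM in every FeCon library, from 0 to 0.394 CPM (median 0.137) in FeCon and from 0.0619 to 15.1 CPM (median 1.87) in FeAAD, with a log2 fold change of 5.03 ± 0.91. Ltbp2, a microfibril protein, rose by 1.36 ± 0.21, whereas Ltbp4, which assists elastin assembly, was lower without overlap at -0.94 (adjusted p = 0.000227) and passed the fold threshold only without FeAAD3 (-1.01), FeAAD4 (-1.02) or FeAAD8 (-1.02).

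Of 37 tested collagen chains in the list 11 rose and 1 fell, or 8 and 1 of 31 with the 19 libraries alone. The list member that fell was Col22a1, a collagen of tissue junctions that is named after its value was seen, at -1.08 (adjusted p = 0.00144), and it was not called without FeAAD7 or without FeAAD5 and FeAAD9. Col19a1, a collagen chain that the list did not hold, was a DEG lower as well, at -1.02 (adjusted p = 0.0011), a call lost without FeAAD5 (-0.89) or any of 7 other single libraries and at -0.75 without FeAAD5 and FeAAD9. Col1a1 ranged from 1998 to 3853 CPM (median 2378) in FeCon and from 4311 to 9605 CPM (median 6357) in FeAAD, and all FeAAD libraries lay above all FeCon libraries at a log2 fold change of 1.28 ± 0.16 (adjusted p = 2.53e-08). Col3a1 changed by 1.14 ± 0.15 and Col5a2 by 1.09 ± 0.12, both without overlap. Col8a1, a short-chain collagen of vascular cells, rose more, from 7.3 to 22.5 CPM (median 12.8) in FeCon and from 31.5 to 726 CPM (median 123) in FeAAD. Its lowest FeAAD library was above the highest FeCon library, and its log2 fold change was 4.34 ± 0.58 (adjusted p = 5.90e-08). Col12a1, which decorates collagen fibrils, rose by 1.95 ± 0.30, with 8 of 9 FeAAD libraries above the controls.

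Collagens of cartilage rose in some FeAAD mice and not in others. Col2a1, the main cartilage collagen, was 0.38 to 2.56 CPM in FeCon, and in FeAAD it was 206 CPM in FeAAD6, 116 in FeAAD1, 56.2 in FeAAD7, 21.8 in FeAAD4 and 12.5 in FeAAD8. The other 4 FeAAD libraries, at 0.296 to 2.17 CPM, lay within the FeCon range or below it. Col10a1, a collagen of hypertrophic cartilage, was high in the same 5 libraries, from 4.12 CPM in FeAAD8 to 257 CPM in FeAAD6, against at most 0.83 CPM in FeCon. Col11a1 was above all FeCon libraries in 8 of 9 FeAAD libraries, up to 92 CPM. The log2 fold changes of Col2a1, Col10a1 and Col11a1 were 5.61 ± 0.90, 6.36 ± 1.23 and 5.34 ± 0.82, and without FeAAD6 they were 4.79, 4.51 and 4.62. Of 20 tested cartilage and bone genes 6 rose and 2 fell. Acan, the proteoglycan aggrecan, ranged from 47.2 to 99.1 CPM (median 59.6) in FeCon and from 107 to 296 CPM (median 225) in FeAAD, higher in every FeAAD library, with a log2 fold change of 1.54 ± 0.18 (adjusted p = 2.83e-09). Runx2, a transcription factor of bone and hypertrophic cartilage, rose without overlap by 2.23 ± 0.27. Sox9, the transcription factor of cartilage cells, was at 0.84 (adjusted p = 6.82e-05), short of the fold threshold. Cytl1, a secreted protein of cartilage, ranged from 147 to 325 CPM (median 259) in FeCon and from 26.2 to 191 CPM (median 100.4) in FeAAD, a log2 fold change of -1.21 ± 0.26 that was -0.93 without FeAAD5 and FeAAD9. The count of 2 falls was 1 without FeAAD2, FeAAD3, FeAAD5, FeAAD9 or FeCon10.

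Among 32 tested metalloproteinases and their inhibitors 12 rose and 1 fell, or 9 and 1 of 29 with the 19 libraries alone. Timp1, a tissue inhibitor of metalloproteinases, ranged from 16.9 to 35 CPM (median 25.8) in FeCon and from 56.6 to 2045 CPM (median 226) in FeAAD. Its groups did not overlap, FeAAD5 at 2045 and FeAAD9 at 1363 CPM were highest, and the log2 fold change of 4.35 ± 0.55 was 3.69 without FeAAD5 and 2.82 without both. Mmp12, macrophage elastase, rose without overlap by 3.98 ± 0.63, or by 2.93 without FeAAD5. Adam8, a protease of leukocytes, rose by 3.64 ± 0.55 (2.75 without FeAAD5), and Adam12 by 2.75 ± 0.38 (2.06 without FeAAD5 and FeAAD9). Mmp9, gelatinase B of neutrophils and macrophages, was called at 2.16 (adjusted p = 0.00454) but rested on FeAAD5 and FeAAD9, at 268 and 67.7 CPM. The other 7 FeAAD libraries were at 4.68 to 9.83 CPM, inside the FeCon range or below it, and without FeAAD5 alone the value was 0.64 (adjusted p = 0.343). Mmp14, a membrane collagenase, rose by 1.10 ± 0.21 and was at 0.90 without FeAAD5 and FeAAD9. Adamts9, a protease of the proteoglycan versican, was the member that fell, at -1.25 ± 0.17. Of 12 tested cathepsins 3 rose, among them Ctss, an elastin-degrading cathepsin of macrophages, from 9.83 to 33 CPM (median 18.2) in FeCon and from 41.4 to 769.5 CPM (median 123) in FeAAD. All FeAAD libraries were above FeCon for Ctss, and the log2 fold change was 3.24 ± 0.39, or 2.46 without FeAAD5. Ctsc, which activates serine proteases of leukocytes, rose without overlap by 1.71 ± 0.26.

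Matricellular proteins, which sit in the matrix and signal to cells, rose in 10 of 23 tested and fell in 1, or in 2 without FeAAD3, FeAAD4 or FeCon10 and in none without FeAAD5 and FeAAD9. Spp1, osteopontin, ranged from 1.16 to 4.62 CPM (median 2.75) in FeCon and from 68.1 to 4120 CPM (median 253) in FeAAD. Every FeAAD library lay far above FeCon, with FeAAD5 at 4120 and FeAAD9 at 2331 CPM. The Spp1 log2 fold change was 8.27 ± 0.89 (adjusted p = 9.52e-10), and it was 7.37 without FeAAD5 and 6.19 without both. Thbs1, thrombospondin-1, an activator of latent TGF-β, ranged from 47.4 to 141 CPM (median 86.1) in FeCon and from 328 to 2879 CPM (median 869) in FeAAD, without overlap, at a log2 fold change of 3.62 ± 0.39 (adjusted p = 7.87e-10). Tnc, tenascin-C of injured tissue, rose by 2.37 ± 0.24 (1.75 without FeAAD5 and FeAAD9), Ccn4 by 2.64 ± 0.29 and Fn1, fibronectin, by 1.25 ± 0.16, all without overlap. Ccn3, a matricellular protein of quiescent vascular cells, ranged from 1889 to 2869 CPM (median 2415) in FeCon and from 269 to 1365 CPM (median 1300) in FeAAD. All FeAAD libraries lay below FeCon and FeAAD5 was lowest, and the change of -1.16 ± 0.19 was -0.91 without FeAAD5 and FeAAD9. Of 25 tested genes of TGF-β signaling 2 rose and none fell as DEGs, and 1 rose without FeAAD6.

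**Figure D2:**
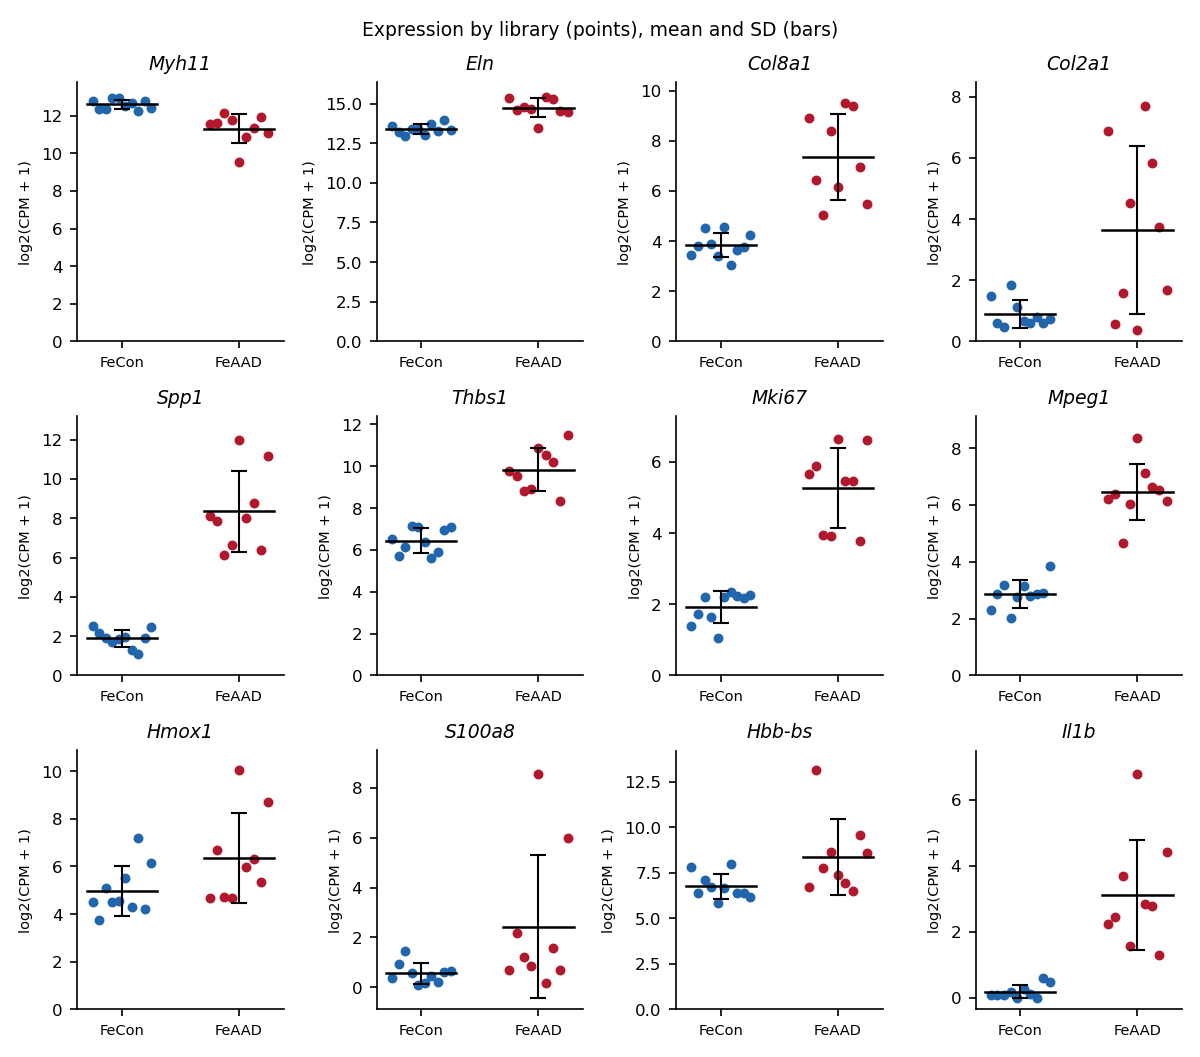
Points are libraries of FeCon (blue, 10 mice) and FeAAD (red, 9 mice) on the log2(CPM + 1) scale for 12 genes, with bars for the mean and SD of each group. Spp1, Thbs1, Mki67, Mpeg1 and Il1b separate the groups, whereas Col2a1, Hmox1, S100a8 and Hbb-bs are high in only some FeAAD libraries.

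Markers of macrophages rose as a whole list. All 15 tested macrophage genes were DEGs higher in FeAAD, 12 of them without overlap, and the summed level of the list was 235 to 566 CPM in FeCon and 634 to 6701 CPM in FeAAD. In bulk tissue, more cells of a type and more RNA per cell cannot be told apart, and the same holds for fewer cells and less RNA, as in the contractile list. The part of leukocyte RNA in the contractile values was not tested. Mpeg1, perforin-2 of macrophages, ranged from 3.04 to 13.2 CPM (median 6.36) in FeCon and from 24.1 to 328 CPM (median 83.4) in FeAAD, with every FeAAD library above FeCon, FeAAD5 highest and a log2 fold change of 4.00 ± 0.43 (adjusted p = 7.87e-10). Adgre1, the F4/80 antigen, ranged from 6.02 to 18.2 CPM (median 11.5) in FeCon and from 18.7 to 122 CPM (median 41.6) in FeAAD, without overlap, a log2 fold change of 2.17 ± 0.28. Csf1r, the receptor for macrophage growth factor, rose by 1.32 ± 0.20 and Ms4a7, a membrane protein of macrophages, by 3.51 ± 0.40. Lyz2, lysozyme, whose reads were partly shared with another gene and are less certain, rose by 2.29 ± 0.34, or 1.52 without FeAAD5 at 3751 CPM. Among 13 tested markers of resident perivascular macrophages 5 rose. Mrc1, the mannose receptor, rose by 1.56 ± 0.25 without overlap, while the other defining markers Lyve1, Cd163 and Folr2 were at -0.49 (adjusted p = 0.107), 0.10 (adjusted p = 0.774) and 0.25 (adjusted p = 0.334), and their groups overlapped. Of 16 genes of lipid-handling and phagocytic macrophages 9 rose. Trem2, a lipid-sensing receptor, ranged from 1.18 to 4.81 CPM (median 2.43) in FeCon and from 5.51 to 109 CPM (median 17.7) in FeAAD, at a log2 fold change of 3.44 ± 0.45 that was 2.71 without FeAAD5. Gpnmb, another marker of such cells, was at 0.18 (adjusted p = 0.715).

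Inflammatory monocyte genes rose in 12 of 13 tested, or in 6 of 7 with the 19 libraries alone. The list also holds Fn1 and Thbs1, given above as matricellular proteins, so its summed level is not that of monocytes alone. Ccr2, the receptor that draws monocytes into tissue, ranged from 1.13 to 7.67 CPM (median 2.97) in FeCon and from 12.1 to 193 CPM (median 50.3) in FeAAD. Its groups did not overlap, and the log2 fold change was 4.19 ± 0.53 (adjusted p = 1.76e-08), or 3.60 without FeAAD5 and FeAAD9, with part of its reads shared with another gene. Of 15 neutrophil markers 9 passed the filter on low counts, a filter that a gene high only in FeAAD could pass through FeAAD alone, and 7 of these rose, or 2 of 2 with the 19 libraries alone. S100a8, a calprotectin subunit, was 0.0709 to 1.77 CPM in FeCon, 374 CPM in FeAAD5 and 61.6 CPM in FeAAD9, but at most 3.54 CPM in the other FeAAD libraries. Its log2 fold change was 6.50 ± 1.12, and 1.25 (adjusted p = 0.192) without these libraries. Csf3r, the receptor for granulocyte growth factor, separated the groups at 0.709 to 2.1 against 3.28 to 157 CPM and rose by 4.55 ± 0.61, or 2.57 without both. Without FeAAD5 and FeAAD9 the number of neutrophil markers called was 3, and with limma-voom it was 4. Ly6g, Camp, Elane and Mpo, which define neutrophils and their precursors, did not pass the filter.

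B cell markers rose from low levels, with 8 of 9 tested higher, or 2 of 2 with the 19 libraries alone, and summed levels of 0.879 to 3.8 CPM in FeCon against 3.16 to 35.9 CPM in FeAAD. Cd79b, a chain of the B cell receptor, ranged from 0.0733 to 0.484 CPM (median 0.257) in FeCon and from 0.681 to 5.5 CPM (median 1.89) in FeAAD, without overlap, at a log2 fold change of 3.09 ± 0.43 (adjusted p = 1.57e-07). Of 22 listed T and NK cell markers 12 were tested and 2 rose, or 5 with DESeq2 or with no filter on low counts, and Cd3e, a chain of the T cell receptor complex, was at 0.62 (adjusted p = 0.424) and at most 1.46 CPM in any of the 19 libraries. Il7r, a receptor of lymphocytes and of some myeloid cells, was the larger of the rises at 2.68 ± 0.47, and without FeAAD6 it was the only one. Of 7 tested thymocyte markers none was a DEG by edgeR, DESeq2 or limma-voom, and 1 had an unadjusted p under 0.05, with summed levels of 10.5 to 46.4 CPM in FeCon and 15.8 to 55.2 CPM in FeAAD. Dendritic cell markers rose in 9 of 11, or in 5 of 7 with the 19 libraries alone.

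Chemokines, the proteins that attract leukocytes, rose broadly. Of 18 tested CC ligands 12 rose, of 13 CXC and other ligands 11 rose, and of 17 receptors 10 rose, and no member of the 3 lists fell as a DEG. With the 19 libraries alone 7 of 13 CC ligands, 8 of 9 CXC and other ligands and 5 of 10 receptors rose. Ccl8, an attractant of monocytes and T cells, ranged from 0 to 1.18 CPM (median 0.456) in FeCon and from 3.28 to 37.7 CPM (median 7.03) in FeAAD, without overlap, with a log2 fold change of 4.47 ± 0.58 (adjusted p = 3.59e-08). Ccl2, the ligand of Ccr2, ranged from 0.78 to 5.89 CPM (median 1.63) in FeCon and from 2.59 to 151 CPM (median 11.6) in FeAAD. In 3 of 9 FeAAD libraries Ccl2 lay within the FeCon range, and the Ccl2 change of 3.60 ± 0.66 was 2.52 without FeAAD5 and 2.02 without both. Cxcl3, a neutrophil attractant, had at most 3 counts in each FeCon library, which puts the FeAAD mean at least 34.5-fold higher than a floor of 3 counts per library, but 3 FeAAD libraries were at 0, FeAAD5 and FeAAD9 were at 43.1 and 16.9 CPM, and the bound was 12.8-fold without FeAAD5 and 3-fold without both. Cxcl2, of the same family, rose by 3.74 ± 0.65, or 1.53 without both of these libraries. Cxcl12, the ligand of Cxcr4, made by cells of the vessel wall, was higher in every FeAAD library, from 119 to 178 CPM (median 152) in FeCon and from 249 to 775 CPM (median 406) in FeAAD. Its log2 fold change was 1.58 ± 0.18 (adjusted p = 2.13e-09). Cx3cl1, fractalkine of endothelium and smooth muscle, rose by 1.96 ± 0.20 and Cxcl16, a scavenger receptor and chemokine, by 1.79 ± 0.22, both without overlap.

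NF-κB is known to drive many chemokine genes in inflamed tissue. Matches to its motif were found on either strand in 4 of 13 matched CXC promoters (30.8%) and 3 of 14 CC promoters (21.4%), against 5.14% of all genes with a promoter window. The following stretches belong to the called chemokines of smallest p with a match before the start, from RefSeq, GRCm38.p6, with the matches in capitals, at chr5:90785989-90786078, plus strand, for Cxcl3, chr5:90903763-90903852, plus strand, for Cxcl2, and chr11:83578637-83578711, minus strand, for Ccl9, a monocyte attractant whose counts are partly shared with another gene:
Cxcl3: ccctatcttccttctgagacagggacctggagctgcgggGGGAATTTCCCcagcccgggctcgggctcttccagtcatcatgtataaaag
Cxcl2: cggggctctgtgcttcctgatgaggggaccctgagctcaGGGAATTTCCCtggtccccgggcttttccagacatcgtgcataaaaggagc
Ccl9: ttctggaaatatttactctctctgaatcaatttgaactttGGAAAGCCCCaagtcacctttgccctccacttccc
The capitalised letters hold 2 overlapping matches each in Cxcl3 and Cxcl2. Ccl9 ranged from 18.1 to 48.3 CPM (median 30.9) in FeCon and from 37 to 655 CPM (median 73.6) in FeAAD, a log2 fold change of 2.26 ± 0.41 that was 1.40 without FeAAD5.

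Of 36 tested cytokines of the interleukin-1, interleukin-6 and TNF families, with their receptors and regulators, 21 rose and none fell as DEGs. With the 19 libraries alone 15 of 28 rose, and 7 of the 21 were no longer among the tested genes. Il1b, interleukin-1β, ranged from 0 to 0.513 CPM (median 0.0728) in FeCon and from 1.45 to 109 CPM (median 5.93) in FeAAD. All FeAAD libraries were above FeCon, FeAAD5 at 109 CPM was highest, and the log2 fold change of 6.84 ± 0.82 was 5.45 without it. Il6 ranged from 0 to 0.298 CPM (median 0.0717) in FeCon and from 0.353 to 31.1 CPM (median 5.04) in FeAAD, without overlap, at 6.26 ± 0.92, or 5.33 without FeAAD5 and FeAAD9. Tnf rose by 2.14 ± 0.42 (1.47 without both) and was highest in FeAAD5, at 4.26 CPM. Il33, an alarm cytokine of stromal cells, rose by 1.87 ± 0.31 without overlap. Tnfrsf11b, osteoprotegerin, the decoy receptor of the ligand RANKL, ranged from 7.07 to 40.1 CPM (median 27.9) in FeCon and from 78 to 231 CPM (median 139) in FeAAD, again separate, at 2.54 ± 0.30 (adjusted p = 4.64e-09). Among the largest rises with separate groups were genes of myeloid receptors and signaling that were almost absent from controls. Against the same floor of 3 counts per FeCon library the FeAAD mean was at least 30.8-fold higher for Trem1, a receptor that amplifies inflammation, at least 18.3-fold for Mefv, the inflammasome protein pyrin, at least 9.99-fold for Tnfsf8, the CD30 ligand, and at least 52.6-fold for Sirpb1c, whose reads are partly shared with similar genes. FeAAD5 was the highest library for these 4 genes, and without it the bounds were 12.6, 9.76, 8.49 and 16.9, or 5.7, 7.11, 8.41 and 12.1 without FeAAD5 and FeAAD9. Cd300lf and Treml2, receptors of myeloid cells, rose by 6.95 ± 0.94 and 5.62 ± 0.74. Their rises were 5.66 and 4.96 without FeAAD5, and 4.18 and 4.2 without FeAAD5 and FeAAD9. Cemip, which degrades hyaluronan, rose by 5.64 ± 0.64.

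The genes of the dividing cell rose almost as a whole. Of 46 tested genes of the cell cycle and DNA replication 39 rose and none fell as DEGs, 25 of them without overlap, with a median log2 fold change of 2.92. Mki67, the proliferation antigen, ranged from 1.06 to 4.09 CPM (median 3.55) in FeCon and from 12.8 to 99.4 CPM (median 43.2) in FeAAD. Every FeAAD library exceeded every FeCon library, and the log2 fold change was 4.02 ± 0.44 (adjusted p = 1.09e-09). Top2a, a topoisomerase of dividing cells, ranged from 0.996 to 4.99 CPM (median 2.24) in FeCon and from 6.72 to 107 CPM (median 40.4) in FeAAD, at 4.06 ± 0.45, and Cdk1, the kinase of mitosis, from 0.729 to 2.53 CPM (median 1.17) in FeCon and from 4.36 to 94.8 CPM (median 18.7) in FeAAD, at 4.30 ± 0.47. Without FeAAD5 and FeAAD9 the changes of Top2a and Cdk1 were 3.47 and 3.29. The summed level of the list was 552 to 649 CPM in FeCon and 621 to 2569 CPM in FeAAD. Ccnd1, cyclin D1, rose by 1.55 ± 0.17, and Pcna, the sliding clamp of replication, was at 0.66 (adjusted p = 0.000323), short of the fold threshold.

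The 10 rises with the smallest p are given next, with what each gene is known for. Rbl1, a pocket protein that binds E2F factors, ranged from 1.92 to 5.3 CPM (median 2.94) in FeCon and from 6 to 19.3 CPM (median 13.4) in FeAAD and changed by 2.07 ± 0.19 (adjusted p = 1.57e-10). Iqgap3 and Racgap1, of the dividing cell's contractile ring, changed by 3.80 ± 0.36 and 3.61 ± 0.34, Ect2, which activates RhoA at that ring, by 3.15 ± 0.31, and Knstrn and Kif20b, of the mitotic spindle and midbody, by 3.77 ± 0.36 and 3.49 ± 0.34. Cdca7l, a target of Myc, rose by 2.45 ± 0.24 and Prc1, which bundles the spindle midzone, by 3.81 ± 0.38. Gatm, which makes the creatine precursor, rose by 2.36 ± 0.23, and Mlkl, the effector of necroptosis, by 1.92 ± 0.19. None of these 10 overlapped between the groups. Without FeAAD5 and FeAAD9 the values of Knstrn and Prc1 were 3.12 and 3.21.

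Many cell cycle genes carry the CHR element, TTTGAA or TTCGAA, through which the DREAM and MuvB complexes are known to act. It was found on either strand in the windows of 21 of 37 matched cell cycle genes (56.8%) and of 21.7% of all genes with a window. Prc1 and Mcm2, a subunit of the replication helicase that rose by 2.02 ± 0.21, are shown as the called members of smallest p with a match before the start, from RefSeq, GRCm38.p6, chr7:80294406-80294475, plus strand, and chr6:88898805-88898890, minus strand, with the CHR in capitals:
Prc1: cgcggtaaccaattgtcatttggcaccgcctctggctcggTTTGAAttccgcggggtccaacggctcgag
Mcm2: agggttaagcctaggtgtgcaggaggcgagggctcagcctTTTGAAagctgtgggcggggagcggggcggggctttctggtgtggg

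Genes of antigen presentation on MHC class II rose in 12 of 13 tested, 8 of them without overlap. H2-Aa, a chain of the class II molecule, ranged from 17.4 to 76.6 CPM (median 49.3) in FeCon and from 80.3 to 399.7 CPM (median 146) in FeAAD, at a log2 fold change of 1.96 ± 0.31 (adjusted p = 1.47e-06). Ciita, the master regulator of these genes, rose by 2.84 ± 0.34 without overlap. Interferon-stimulated genes rose in 12 of 28 tested, while no member of that list separated the groups. Isg15, a ubiquitin-like protein induced by interferon, ranged from 1.49 to 5.07 CPM (median 2.87) in FeCon and from 2.91 to 37.8 CPM (median 9.24) in FeAAD, with 6 of 9 FeAAD libraries above FeCon, at 2.03 ± 0.36, and Oas1a, an RNA sensor with partly shared reads, rose by 2.39 ± 0.36. Of 24 complement genes 13 rose and C7, of the membrane attack complex, fell and ranged from 55.1 to 109 CPM (median 84.3) in FeCon and from 4.29 to 52 CPM (median 33.6) in FeAAD. All FeAAD libraries lay below FeCon for C7, at a log2 fold change of -1.49 ± 0.26.

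The size of the rises of haemoglobin and platelet genes depended on single libraries. All 6 tested red blood cell genes were DEGs higher in FeAAD, with no separation of the groups. Hbb-bs, adult β-globin, which shares reads with its neighbour, was 9235 CPM in FeAAD2 and 777, 401 and 378 CPM in FeAAD8, FeAAD4 and FeAAD9, while the other 5 FeAAD libraries lay within the FeCon range of 55.6 to 254 CPM. The log2 fold changes of Hbb-bs and of Alas2, the first enzyme of heme synthesis in red cells, were 3.41 ± 0.63 and 3.90 ± 0.70. Without FeAAD2 they were 1.25 and 1.44, and both genes were still DEGs. Of 8 platelet genes 5 rose, or 3 without FeAAD3 and 3 of 5 with the 19 libraries alone. Ppbp, a platelet chemokine, ranged from 0 to 0.928 CPM (median 0.308) in FeCon and from 0.909 to 196 CPM (median 5.37) in FeAAD, highest in FeAAD5, and changed by 6.41 ± 0.91, or 5.14 without it. Blood in or on the dissected wall was not measured separately, and its part in these values was not tested.

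**Figure D3:**
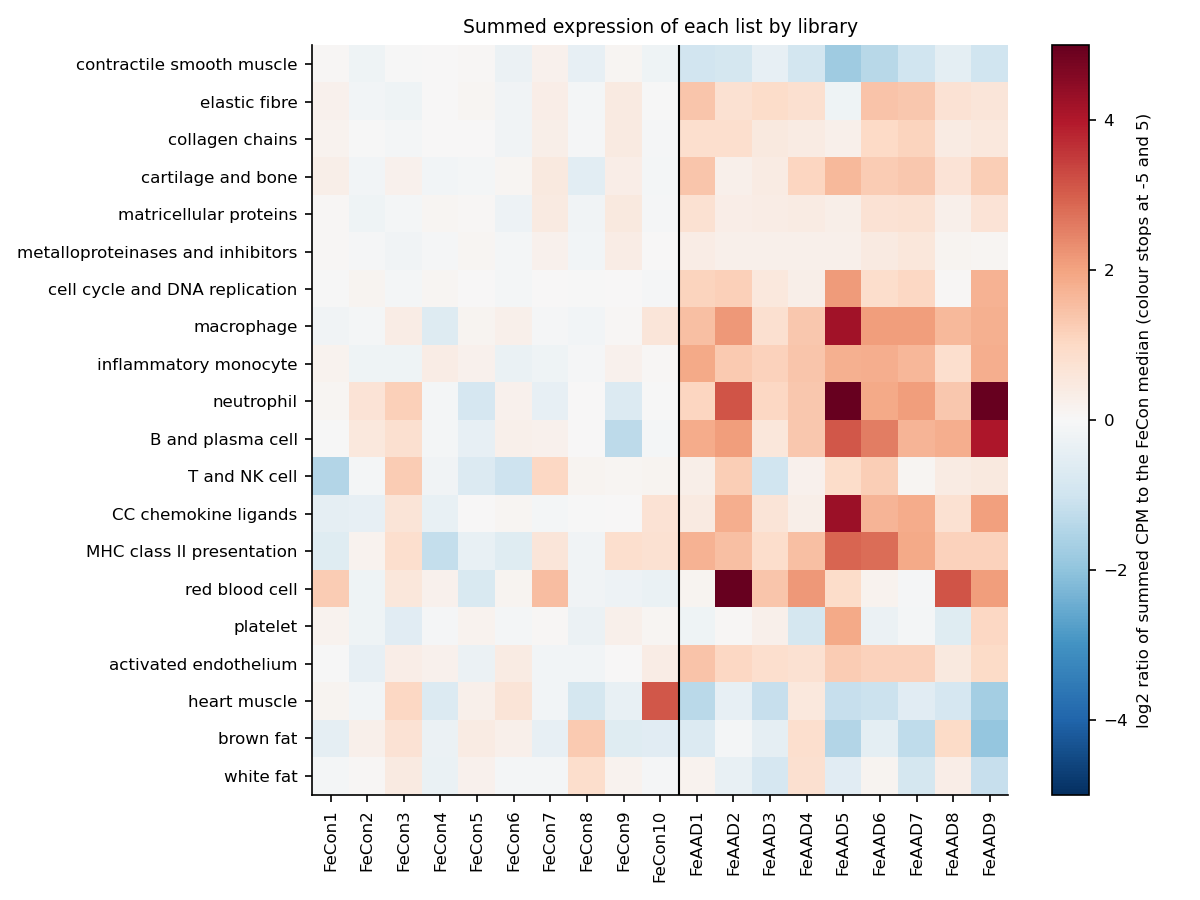
Each cell shows, for the list on the left and the library below, the log2 ratio of the summed CPM of the list to its median over the 10 FeCon libraries, with red above and blue below that median. Macrophage, monocyte and activated endothelium lists are above the median in all 9 FeAAD libraries, and the monocyte list also holds Fn1 and Thbs1. FeAAD5 and FeAAD9 have the darkest neutrophil cells, FeAAD2 the darkest red blood cell and FeCon10 the darkest heart muscle cell.

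Markers of endothelium as such and of activated endothelium gave different counts. None of 16 tested endothelial markers was a DEG by edgeR, DESeq2 or limma-voom, with 2 higher and 2 lower at adjusted p under 0.05 and 2 and 3 at unadjusted p under 0.05. Pecam1 ranged from 262 to 589 CPM (median 446) in FeCon and from 120 to 448 CPM (median 299) in FeAAD, overlapping, at -0.70 (adjusted p = 0.00198). Of 11 genes of activated endothelium 5 rose. Esm1, endocan, a marker of sprouting tip cells, ranged from 0.425 to 1.83 CPM (median 1.03) in FeCon and from 6.3 to 61.9 CPM (median 20.1) in FeAAD. Its lowest FeAAD library was above the highest FeCon library, FeAAD1 was highest, and the log2 fold change was 4.45 ± 0.45 (adjusted p = 3.54e-10). Apln, the ligand apelin of growing vessels, rose by 2.83 ± 0.43, and Vcam1, an adhesion molecule for leukocytes, ranged from 39.4 to 88.3 CPM (median 60.5) in FeCon and from 102 to 240.5 CPM (median 198) in FeAAD, without overlap, at 1.51 ± 0.21.

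Fibroblast markers went both ways, with 2 of 16 higher and 3 lower. Gsn, gelsolin, an actin-severing protein abundant in adventitial fibroblasts and smooth muscle, ranged from 4077 to 6000 CPM (median 5390) in FeCon and from 750.5 to 3143 CPM (median 2148) in FeAAD. FeAAD5 was lowest, no library overlapped, and the log2 fold change was -1.29 ± 0.17 (adjusted p = 5.00e-08). Leaving out FeAAD5 or FeAAD9 left 1 of the 3 falls, and leaving out FeAAD6 or FeAAD7 left 1 of the 2 rises. Tissues that surround the aorta were checked as well. Heart muscle markers fell in 6 of 12 tested, or in 2 of 8 with the 19 libraries alone, and this rested partly on FeCon10, whose summed level of 729 CPM was the highest of FeCon. Myl3, a myosin light chain of the ventricle, was 60.1 CPM in FeCon10, and its log2 fold change went from -3.64 to -0.28 without it, when 3 heart markers were called. None of 10 brown fat markers was a DEG by edgeR, DESeq2 or limma-voom, with 1 lower at unadjusted p under 0.05, and 1 was a DEG lower without FeAAD3, FeAAD4 or FeAAD8 and 1 higher without FeCon8. Of 13 white fat markers 2 fell, or 1 without FeAAD5, FeAAD7, FeAAD9 or FeCon5. Plin4, a perilipin of fat that muscle also makes, ranged from 869 to 2017 CPM (median 1413) in FeCon and from 207 to 843 CPM (median 533) in FeAAD, at -1.48 ± 0.18 without overlap. Of 10 tested genes of epithelium and mesothelium 1 rose and 1 fell, or 2 fell without FeAAD2, FeAAD8 or FeCon2. The rise was that of Cdh1, E-cadherin, named after its value was seen, at most 0.506 CPM in FeCon and 0.309 to 12.5 CPM in FeAAD, at 3.88 ± 0.71, or 3.08 without FeAAD5 and 2.29 without FeAAD5 and FeAAD9, and it was not among the tested genes with the 19 libraries alone. Upk3b, a marker of mesothelium, was the fall, which changed by -1.24 ± 0.31 and came just short of the threshold without FeAAD5 and FeAAD9. Of 9 skeletal muscle markers 2 fell, but 1 without FeAAD1, FeAAD5, FeAAD8, FeAAD9 or FeCon10 and 4 without FeCon2. Of 10 Schwann cell and nerve markers 1 fell, which was lost without FeCon7, FeCon9 or FeCon10 and with the 19 libraries alone, and of 7 mast cell markers 1 rose, which was lost without FeAAD5 or any of 7 other single libraries. The part of surrounding tissue in these values was not tested.

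No respiratory gene passed the test. None of 55 tested genes of oxidative phosphorylation was a DEG by edgeR, DESeq2 or limma-voom, none had an adjusted p under 0.05 and 1 had an unadjusted p under 0.05, with a median log2 fold change of -0.16. Of 34 genes of glycolysis and hypoxia 2 rose and 2 fell, and 1 rose without FeAAD5. None fell without FeAAD1, FeAAD5, FeAAD9, FeCon5 or FeCon7, and 1 fell without FeCon1, FeCon3, FeCon9 or FeCon10 or with the 19 libraries alone. None of 34 autophagy genes was a DEG by the same 3 tools, with 19 lower and 2 higher at adjusted p under 0.05 (21 and 2 unadjusted), against 20.6% and 23.8% of all tested genes. In arginine metabolism 3 of 17 genes rose, or 1 of 14 with the 19 libraries alone. Ddah1, which degrades an inhibitor of nitric oxide synthase, ranged from 0.78 to 2.08 CPM (median 1.18) in FeCon and from 2.6 to 47 CPM (median 13.9) in FeAAD, without overlap, at 3.94 ± 0.57. Of 27 genes of prostaglandins and leukotrienes 8 rose and 2 fell, the latter 1 without FeAAD5 or any of 6 other single libraries. Ptgs2, cyclooxygenase-2, ranged from 4.77 to 26.8 CPM (median 11.2) in FeCon and from 24.8 to 597 CPM (median 66) in FeAAD, with 8 FeAAD libraries above FeCon and FeAAD9 highest, at 3.42 ± 0.51, or 2.61 without FeAAD9. Of 25 genes of reactive oxygen and heme 8 rose, or 5 without FeAAD5 and FeAAD9, and 2, the metallothioneins Mt1 and Mt2, fell. Hmox1, heme oxygenase-1, was 1046 CPM in FeAAD5 and 416 in FeAAD9 and within the FeCon range of 12.5 to 146 CPM in the rest, and its change of 2.31 ± 0.56 was 0.33 (adjusted p = 0.58) without these libraries.

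The study asked about tryptophan metabolites, and host genes of tryptophan breakdown and of the aryl hydrocarbon receptor, a sensor of indoles, were read as a list. Of 23 genes 17 were tested, 4 rose and none fell as DEGs, and 2 of 12 rose with the 19 libraries alone, while 1 fell without FeAAD5. Ahr, the receptor, ranged from 1.12 to 8.98 CPM (median 3.71) in FeCon and from 6.19 to 34.1 CPM (median 13.9) in FeAAD, with 8 of 9 FeAAD libraries above FeCon, at a log2 fold change of 2.00 ± 0.31 (adjusted p = 1.03e-06). Kmo and Haao, enzymes of the kynurenine branch, rose from near 0 by 2.47 ± 0.36 and 2.89 ± 0.50, with Kmo at 1.29 to 9.94 CPM in FeAAD. Ido1, Ido2, Tdo2 and Kynu, which begin and feed that branch, did not pass the filter on low counts. Of 11 tested sex steroid receptors and targets 1 rose and 2 fell. Pgr, the progesterone receptor, ranged from 4.18 to 14.5 CPM (median 11.4) in FeCon and from 1.42 to 7.49 CPM (median 4.97) in FeAAD, at -1.12 ± 0.26, and at -0.99, no longer a DEG, without FeAAD5. Fkbp5, a chaperone induced by steroid hormones, ranged from 59.8 to 551 CPM (median 235) in FeCon and from 20.4 to 134 CPM (median 55.6) in FeAAD, at -1.93 ± 0.46, with 5 FeAAD libraries below FeCon.

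Among the falls with the smallest p, Scin, scinderin, an actin-severing protein, ranged from 2.31 to 15.6 CPM (median 10.4) in FeCon and from 0.769 to 1.26 CPM (median 0.936) in FeAAD. No library overlapped, FeAAD libraries lay close together, and the log2 fold change was -3.37 ± 0.30 (adjusted p = 8.07e-11). Vwce, a secreted protein with von Willebrand factor domains, ranged from 0.464 to 12.5 CPM (median 6.91) in FeCon and from 0.118 to 0.611 CPM (median 0.3) in FeAAD, at -4.52 ± 0.44 (adjusted p = 2.74e-10), where only FeCon2 at 0.464 CPM lay within the FeAAD range. Tango6 changed by -1.95 ± 0.23 without overlap. Phka1, a subunit of phosphorylase kinase, changed by -1.37 ± 0.15, Art3 by -1.58 ± 0.19, Crispld2, a secreted protein induced by glucocorticoids, by -1.57 ± 0.19, Maff, a small Maf transcription factor, by -1.59 ± 0.18, Emd, emerin of the nuclear envelope, with partly shared reads, by -1.10 ± 0.12, and Hspb1, a small heat shock protein abundant in muscle, by -2.21 ± 0.26. FeCon2 was the lowest FeCon library for Maff, Crispld2 and Hspb1, at 24.9, 352 and 514 CPM.

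In FeNonAD, whose aortas had no visible lesion, these genes were lower than in FeCon as well. They were chosen for their small p in FeAAD against the same FeCon libraries. The share of all tested genes lower in FeNonAD was not counted. Scin was 0.743 to 1.96 CPM in FeNonAD, with a log2 fold change against FeCon of -3.05 ± 0.30 (adjusted p = 5.70e-09), and Vwce was 0.183 to 0.918 CPM, at -3.81 ± 0.44 (adjusted p = 1.21e-07). The differences between FeAAD and FeNonAD were -0.32 ± 0.31 (adjusted p = 0.489) for Scin, 0.11 ± 0.19 (adjusted p = 0.719) for Maff, -0.11 ± 0.23 (adjusted p = 0.776) for Tango6 and -0.03 ± 0.13 (adjusted p = 0.908) for Emd. These comparisons share the FeCon or the FeAAD libraries with the comparison above and are set beside it for the values only. A p that misses the threshold does not show that FeAAD and FeNonAD had the same level. Myh11 and Col1a1 were at -0.31 ± 0.20 (adjusted p = 0.298) and 0.64 ± 0.17 (adjusted p = 0.00773) in FeNonAD against FeCon.

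**Figure D4:**
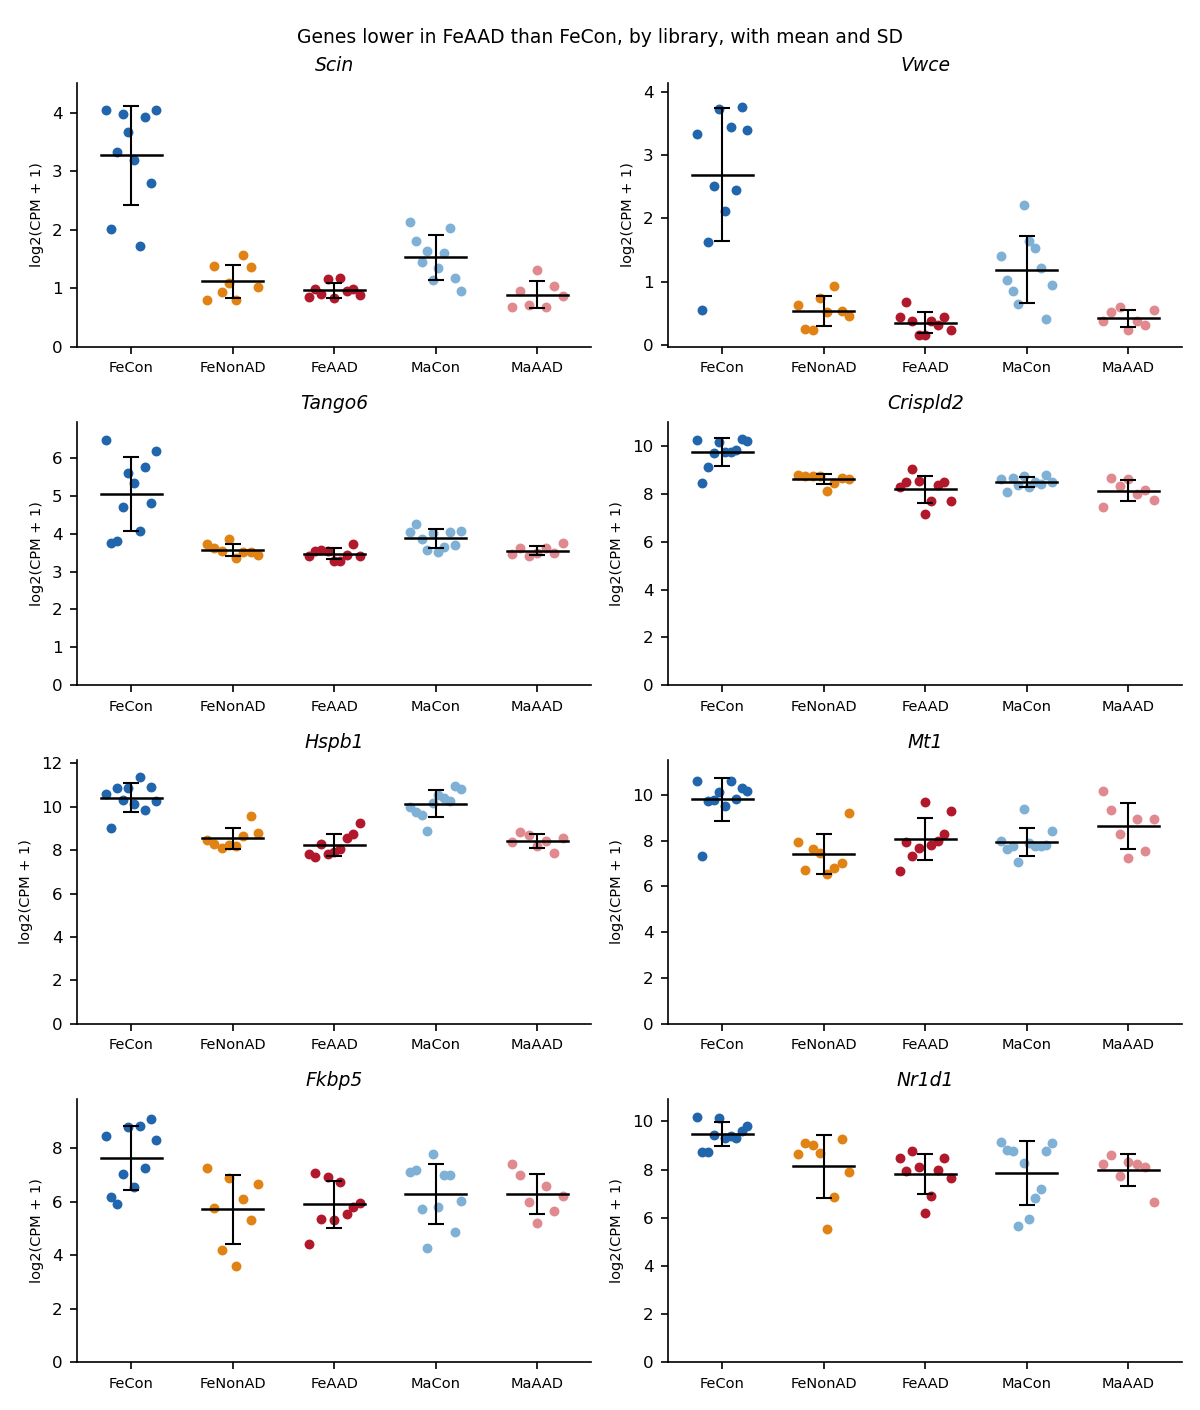
Points are libraries on the log2(CPM + 1) scale in 10 FeCon, 8 FeNonAD, 9 FeAAD, 10 MaCon and 7 MaAAD mice, with the mean and SD of each group as bars. For Scin, Vwce, Tango6 and Crispld2 the FeNonAD and FeAAD libraries lie together below most FeCon libraries. MaCon lies lower than FeCon on the whole, with overlap for Scin and Crispld2.

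The 10 largest falls without overlap began with Scin and went on with Klk11 and Klk10, secreted serine proteases. Klk11 ranged from 0.928 to 2.05 CPM (median 1.53) in FeCon and from 0 to 0.471 CPM (median 0.25) in FeAAD and changed by -2.47 ± 0.36, and Klk10 ranged from 11.1 to 33.7 CPM (median 17.6) in FeCon and from 0.121 to 10.7 CPM (median 4.94) in FeAAD and changed by -2.01 ± 0.40. Rasl10b, a small GTPase, changed by -2.21 ± 0.32 and Actn2, an α-actinin of striated muscle, by -2.07 ± 0.32. Actn2 ranged from 15.8 to 51 CPM in FeCon and from 2.57 to 12.9 CPM in FeAAD. Tango6, Lgi1, a secreted protein best known from neurons, Spock2, a matrix proteoglycan, and Limch1, which activates non-muscle myosin, changed by -1.95 ± 0.23, -1.85 ± 0.28, -1.76 ± 0.25 and -1.61 ± 0.22, and Eppk1, epiplakin, with partly shared reads, by -1.64 ± 0.26.

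Clock, metallothionein and stress genes varied between mice in both groups. Of 19 clock genes 3 fell, namely Nr1d1, Cry2 and Per1, or 1 without FeAAD5 and FeAAD9. Nr1d1, the repressor REV-ERBα, ranged from 418 to 1158 CPM (median 683) in FeCon and from 71.9 to 434 CPM (median 254) in FeAAD, at -1.54 ± 0.39 (adjusted p = 0.00119). Cry2 changed by -1.13 ± 0.21 and Per1 by -1.03 ± 0.31. The Per1 call was lost without FeCon9 (-0.70), FeCon7 (-0.85), FeAAD5 (-0.90), FeAAD7 (-0.93) or FeAAD9 (-0.93). Arntl, the activator BMAL1, was between 2.03 and 10.5 CPM in FeCon3, FeCon4, FeCon6 and FeCon8 and between 22.1 and 41.9 CPM in the other FeCon libraries. In FeAAD, the libraries FeAAD6, FeAAD7 and FeAAD9 were at 27.9 CPM or more, FeAAD5 at 14.1 CPM and the other 5 at 6.9 CPM or less. The paper places fecal sampling of all mice in a morning window of the same day, shortly before they were killed. The labels give no time of tissue collection for each mouse, and its part in these values was not tested. Mt1, a metallothionein, ranged from 159 to 1572 CPM (median 1007) in FeCon and from 102 to 825 CPM (median 246) in FeAAD, and FeCon2 at 159 CPM was the only FeCon library under 729 CPM. Its log2 fold change of -1.64 ± 0.38 was -2.24 without FeAAD5 and FeAAD9, the FeAAD libraries with the highest Mt1, and Mt2 went from -1.42 ± 0.51 to -2.30. Among immediate early genes 5 of 21 rose and 2 fell, but 8 rose without FeCon7 and none fell without FeCon9. Of 24 genes of heat shock and the unfolded protein response 4 rose and 1, Hspb1, fell, but 2 rose without FeAAD5 and 1 without FeAAD9. Egr2, a transcription factor of growth responses, ranged from 1.69 to 7.25 CPM (median 3.42) in FeCon and from 8.43 to 26.4 CPM (median 14.8) in FeAAD, without overlap, at 2.23 ± 0.24 (adjusted p = 9.68e-10), and Fos rose by 1.72 ± 0.41 with overlap.

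Set directly against FeNonAD, FeAAD had 980 DEGs higher (6.79%) and 36 lower (0.249%). Those with the smallest p upward were the cell division genes Cdca7l, Cdk1, Knstrn and Cenpi, at log2 differences of 1.66 ± 0.25 (adjusted p = 9.96e-05), 2.96 ± 0.47 (adjusted p = 9.96e-05), 2.28 ± 0.36 (adjusted p = 9.96e-05) and 2.29 ± 0.36 (adjusted p = 9.96e-05), with Cyp4f18, which inactivates leukotriene B4 in neutrophils, at 3.26 and Ctla2a, a protease inhibitor, at 1.70. Cenpi and Ctla2a have partly shared reads. Without FeAAD5 and FeAAD9 there were 600 DEGs higher, and Cdk1 and Cyp4f18 were at 1.94 and 1.85. Downward the smallest p belonged to Pla2g2d, a secreted phospholipase of dendritic cells, 0.828 to 9.12 CPM in FeNonAD and 0 to 1.22 CPM in FeAAD, at -2.28 ± 0.43 (adjusted p = 0.000195). Proser2 (-1.03), Col19a1 (-1.29), Coch, cochlin of the matrix (-1.34), Kcnc4, a potassium channel (-1.12), and Lsamp, a cell adhesion molecule (-1.02), followed. The call of Proser2 was lost without FeAAD5 (-0.91), FeAAD1 (-0.99) or FeNonAD7 (-0.97), that of Kcnc4 without FeAAD5 or FeNonAD4, where it came just short of the fold threshold, and that of Lsamp in 6 of 17 fits that left out a library, down to a size of -0.88. The number of lower DEGs ranged from 17 without FeAAD5 to 80 without FeAAD3.

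The response of the Fe groups was set against that of the Ma groups, MaAAD against MaCon, which share no library with it. The difference between the responses was a DEG for 25 genes in the positive direction (0.173%) and 50 in the negative direction (0.346%), and 15.4% of genes had an unadjusted p under 0.05. These counts moved with single libraries. They were 58 and 92 without FeCon2, 46 positive without FeAAD5, and 32 negative without FeCon10 or without MaAAD2 and 83 without MaCon5, and without FeAAD5 and FeAAD9 together they were 48 and 107. List members among the 25 and 50, named after their values were seen, included the clock genes Npas2, Cry2 and Bhlhe40 (3 of 19), the heat shock genes Hspa1a, Hspa1b, Hsph1 and Dnajb1 (4 of 24) and Mt1 and Mt2 of the reactive oxygen list (2 of 25). Of 36 fits that left out a library, 23 ended the call of Npas2, 18 that of Cry2, 16 that of Dnajb1 and 8 that of Hsph1, and none that of the other 5 genes named here.

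**Figure D5:**
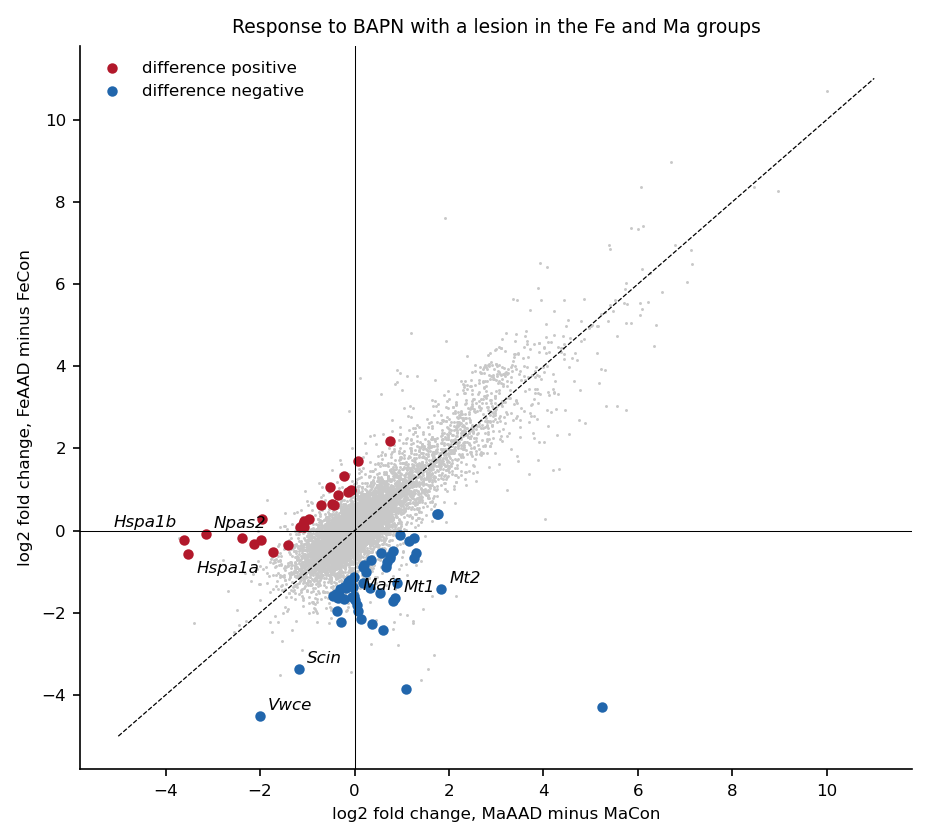
Each point is a gene, with the log2 fold change of MaAAD against MaCon on the horizontal axis and of FeAAD against FeCon on the vertical axis. Coloured points are the 25 genes with a positive and 50 with a negative difference of the responses, and the dashed line marks equal responses.

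The named genes of this difference included heat shock genes, metallothioneins, a clock gene and genes of the small-p falls. Mt2 was 56.1 to 874 CPM in FeCon and 41.5 to 583 in FeAAD, but 35.8 to 234 in MaCon and 77.4 to 706 in MaAAD, so that the response was -1.42 in the Fe groups and 1.83 ± 0.53 (adjusted p = 0.00596) in the Ma groups. The Mt2 difference was -3.25 ± 0.74 (adjusted p = 0.0167), and that of Mt1 was -2.50 ± 0.55 (adjusted p = 0.0126), or -4.18 and -3.15 without FeAAD5 and FeAAD9. Hspa1a and Hspa1b, inducible heat shock proteins of near-identical sequence whose split reads are less certain, were at -0.57 (adjusted p = 0.279) and -0.22 (adjusted p = 0.733) in the Fe groups and at -3.52 ± 0.52 (adjusted p = 6.48e-07) and -3.60 ± 0.58 (adjusted p = 3.00e-06) in the Ma groups. Their differences were 2.95 ± 0.63 (adjusted p = 0.0106) and 3.39 ± 0.71 (adjusted p = 0.00925). Npas2, a clock activator, differed by 3.07 ± 0.84 (adjusted p = 0.0493), and 23 of 36 fits that left out a library ended its call, with adjusted p up to 0.0841. Scin also fell in the Ma groups, at -1.17 ± 0.32 (adjusted p = 0.00297), from 0.942 to 3.4 CPM in MaCon, and the responses differed by -2.20 ± 0.42 (adjusted p = 0.00431). Vwce differed by -2.51 ± 0.63 (adjusted p = 0.0321), a call lost without FeCon10, MaAAD2 or MaAAD3 (adjusted p of 0.0528, 0.0585 and 0.0538). Crispld2, Maff, Tango6 and Phka1 differed by -1.25 ± 0.27 (adjusted p = 0.0106), -1.59 ± 0.26 (adjusted p = 0.00192), -1.58 ± 0.32 (adjusted p = 0.0079) and -1.16 ± 0.21 (adjusted p = 0.00241), and each had a lower median in MaCon than in FeCon, at 363 against 895 CPM for Crispld2 and 30.7 against 96.7 CPM for Maff.

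The spread among FeAAD mice was compared with that among FeCon mice. The SD of log2(CPM + 1) was larger in FeAAD than in FeCon for 1385 of the 1435 higher DEGs, with a median SD of 0.711 against 0.28, and for 197 of the 401 lower DEGs, with medians of 0.448 and 0.416. Over all tested genes it was larger in FeAAD for 60.4%, and for 47.6% without FeAAD5. The higher DEGs were chosen on the same values, and these counts are a description with no test.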

How the data were processed

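According to the paper, RNA was extracted from lesioned segments of the thoracic aorta and sequenced as strand-specific libraries, 1 per mouse. The segment taken from each mouse, controls without a lesion included, is not stated, and its part in the values was not tested. The authors deposited expected counts per gene, and their processing notes name Bowtie2, RSEM 1.3.1 and GRCm39, so reads that match several genes were shared between them. Of the values 4.99% were not whole (tolerance 1e-09), in 2247 of 18782 genes, and they were rounded. All 48 columns were matched to a labelled sample by name. Columns were read as counts of libraries of 13548003 to 16453882 in the Fe groups compared, and no value of the paper was used.

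Genes were filtered with filterByExpr, scaled with TMM and fitted with edgeR 4.0.16 (quasi-likelihood, robust) in R 4.3.3, with 1 mean for each of the 6 groups and all 48 libraries sharing the estimate of the spread. Contrasts were FeAAD minus FeCon, FeAAD minus FeNonAD and the difference between the responses of the Fe and Ma groups. P-values were adjusted by the Benjamini-Hochberg method over all 14431 tested genes, and a DEG needed an adjusted p under 0.05 and a log2 fold change of at least 1 in size. SEs were derived from the fold change and its F statistic. CPM are the rounded counts scaled to a TMM effective library total of 1000000. Gene symbols were those of the table. A gene was described as having partly shared reads where its deposited counts were not whole.

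The gene lists, the markers and the compared groups were chosen with earlier results of these data known. Beside lists, named genes were the 10 rises and 10 falls with the smallest p, the 10 largest rises and falls without overlap, and the genes of smallest p in the other contrasts, with a mean of at least 10 counts. Some genes that meet these rules are not reported here. The named chemokines, cytokines and other list members were chosen after earlier results were seen. DESeq2 1.42.0, limma 3.58.1 (voom with quality weights), glmTreat, other filters and scalings, a replicate block and leaving out each library were alternatives. On simulated counts for 14270 genes with 200 changed genes the test recovered 187 (93.5%) by adjusted p alone, without the fold criterion. The simulation gave all genes the same spread between mice and changed only genes above a count threshold. It held no uneven libraries such as FeAAD5 and FeAAD9, so its share is not that of the DEG calls here. Promoters were RefSeq windows of 250 bases before to 50 after a start in GRCm38.p6, a build that differs from that of the counts, and were matched by symbol. Figures were drawn with Python 3.11.15 and matplotlib 3.10.9.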

Additional observations from a re-analysis of the deposited data

Results flagged for a closer look

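In 15 of 80 groups examined, FeCon or FeAAD for 40 genes, the highest or lowest library stood apart from the rest by Dixon's criterion on CPM. Its chance rate of about 1 in 20 groups is for normally distributed values. The CPM were not transformed or tested for that, and the genes were chosen after results were seen. The 15 of 80 therefore cannot be read against that rate. FeAAD5 held 8 of these values, all high, for genes of myeloid cells, cytokines and platelets. Its levels were 770 CPM for Ctss, 328 CPM for Mpeg1, 3751 CPM for Lyz2 and 374 CPM for S100a8. They were 109 CPM for Il1b, 31.1 CPM for Il6, 151 CPM for Ccl2 and 196 CPM for Ppbp.

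FeAAD2 stood apart for Hbb-bs (9235 CPM) and Vwce (0.611 CPM), FeAAD9 for Tnc (980 CPM) and FeAAD1 for Esm1 (61.9 CPM). Among controls FeCon3 was high for Des (279.9 CPM) and S100a8 (1.77 CPM), and FeCon10 for Mpeg1 (13.2 CPM). FeCon10 was also the FeCon library with the highest Ctss and Lyz2.

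Among the genes whose Fe response differed from the Ma response by the test of the difference itself, 8 are listed here. The Fe response minus the Ma response, on the log2 scale, was -1.25 for Crispld2, -2.20 for Scin and -2.51 for Vwce, which fell in the Fe groups. It was -2.50 for Mt1 and -3.25 for Mt2, and 2.95 for Hspa1a and 3.39 for Hspa1b, which fell in the Ma groups. For Npas2 it was 3.07, a call that most fits leaving out a library did not keep.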

How the results depend on the processing

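The 1435 and 401 DEGs became 1584 and 479 with DESeq2, 1335 and 327 with limma-voom, 1682 and 514 with no filter on low counts and 1103 and 302 when only FeCon and FeAAD were fitted and 13500 genes were tested. Without the fold criterion 3438 genes were higher and 2972 lower, and a test against a fold of 2 (glmTreat) called 840 and 61. Leaving out 1 library gave 1263 (without FeAAD5) to 1513 (without FeAAD8) higher and 305 (without FeAAD5) to 461 (without FeAAD8) lower, and without FeAAD5 and FeAAD9, an alternative chosen after seeing the data, 250 were lower. The share of genes with a larger SD in FeAAD ran from 47.6% (without FeAAD5) to 62.8% (without FeAAD1).

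For the difference of the responses, the 25 positive and 50 negative genes became 81 and 113 without the fold criterion, 49 and 80 with DESeq2, 48 and 107 without FeAAD5 and FeAAD9, and 17 (without FeCon1) to 58 and 32 to 92 (both highest without FeCon2) when 1 library was left out. For FeAAD against FeNonAD, the 980 and 36 became 1904 and 721 without the fold criterion, 600 and 10 without FeAAD5 and FeAAD9, and 696 (without FeAAD5) to 1135 (without FeNonAD8) and 17 to 80 when 1 library was left out, and 16 were lower when only the groups compared were fitted. The leave-one-out fits of these other contrasts were added after seeing the data. The cause of these changes was not tested beyond the libraries named.

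The direction turned for Mmp9, whose log2 fold change was -0.18 with limma-voom (adjusted p = 0.749) and -0.34 without FeAAD5 and FeAAD9 (adjusted p = 0.619), where it was -0.64 against FeNonAD. Of 142 DEGs chosen for naming, 99 were called under all 28 settings, and 40 were lost with glmTreat, 11 with limma-voom, 7 without FeAAD5 and 15 without FeAAD5 and FeAAD9. With glmTreat the lists had 1 fall each in heart muscle, skeletal muscle, white fat and heat shock and none elsewhere, and the rises became 5 of 11 in collagens, 7 of 12 in metalloproteinases, 5 of 10 in matricellular proteins, 7 of 13 in complement, 6 of 12 in interferon-stimulated genes, 2 of 5 in resident macrophages, 1 of 4 in elastic fibre, 1 of 4 in heat shock, 1 of 5 in immediate early genes and 0 of 2 in TGF-β signaling and in fibroblasts. With limma-voom the genes called higher were 5 instead of 8 for reactive oxygen and heme and 1 instead of 4 for heat shock, and 1 fibroblast marker instead of 3 fell. The bounds on the fold without FeAAD5, or without FeAAD5 and FeAAD9, were added after seeing the data.

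Library numbers did not pair the samples (correlations of deviations from the group means between -0.215 and 0.0884). With the number as a replicate block 1381 and 392 genes were called, 19 and 44 for the difference of the responses and 864 and 35 against FeNonAD. At this depth, genes with at most 3 counts in every control library allow only a lower bound on their fold, and such bounds cover counting error only.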
